A study of Mus musculus with 4 samples.

Results

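The 49 genes described here encode the machinery of mitosis: the kinases and cyclins that start it, the spindle, the kinetochores that tie chromosomes to it, the condensins and the factors that end it. They were taken by gene symbol from a deposited expression table of 24493 symbols, and all 49 were found there. Each passed the filter on low values (2 or more libraries reaching 1 TPM), which kept 12336 genes in all. TPM is a length-corrected share of the transcripts of a library, so levels can be set side by side between genes.

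The libraries came from cultured mouse cells of C57BL/6 background, made from isolated hepatocytes, with no treatment applied per the labels. Clones 15C7 and 19H5 each gave a library of hepatocyte-derived biliary cells grown as a 2D culture (Bil_2D, n = 2) and a library of hepatocytes grown as a 3D culture (Hep_3D, n = 2). In both groups clone 15C7 is replicate 1 and clone 19H5 is replicate 2. Every library of a state had the same culture format, so cell state and format cannot be told apart, and each clone gave a single library per state. Labels say nothing on whether clones came from separate animals, so the p-values reflect only how these libraries vary, some of which may be technical.

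Cells in mitosis condense their chromosomes, attach sister kinetochores to spindle microtubules, wait at the spindle assembly checkpoint until attachment is complete, and then destroy cyclin B and securin through the anaphase promoting complex. Most of the transcripts involved are made in late S, G2 and M phase and are low in resting cells. The DREAM complex represses these genes in quiescence, and B-MYB and FOXM1 activate them in cycling cells, through CCAAT boxes bound by NF-Y and through a core called the cell cycle genes homology region. Hepatocytes of the adult liver are mostly quiescent and can re-enter the cycle after injury. In bulk RNA, fewer dividing cells and less of these transcripts per cell cannot be told apart.

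The promoters of the members with the largest falls are shown to describe the sequence words that many members hold. Any link between these words and the levels of the members was not tested. They come from RefSeq (GRCm38.p6, the same assembly as mm10), which held a promoter for 40 of the 49 members, and each runs from 250 bases before to 50 after the transcription start, 5′ to 3′ on the strand of the gene. Capitals mark CCAAT boxes and the homology region cores on either strand. The box was searched as CCAAT (in reverse, ATTGG). One form of the core was searched as TTTGAA (in reverse, TTCAAA). The other form was TTTAAA, which reads the same on both strands. The Ube2c promoter lies at chr2:164769679-164769978 (plus strand), that of Ccnb2 at chr9:70421505-70421804 (minus), Kif23 at chr9:61946750-61947049 (minus), Ccnb1 at chr13:100786437-100786736 (minus) and Anln at chr9:22389157-22389456 (minus).
Ube2c: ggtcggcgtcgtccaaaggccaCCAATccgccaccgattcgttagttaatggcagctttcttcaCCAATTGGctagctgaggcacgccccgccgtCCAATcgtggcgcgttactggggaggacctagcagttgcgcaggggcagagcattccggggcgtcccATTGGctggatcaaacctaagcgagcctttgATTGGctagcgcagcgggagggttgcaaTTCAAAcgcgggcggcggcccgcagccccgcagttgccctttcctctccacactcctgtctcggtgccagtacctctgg
Ccnb2: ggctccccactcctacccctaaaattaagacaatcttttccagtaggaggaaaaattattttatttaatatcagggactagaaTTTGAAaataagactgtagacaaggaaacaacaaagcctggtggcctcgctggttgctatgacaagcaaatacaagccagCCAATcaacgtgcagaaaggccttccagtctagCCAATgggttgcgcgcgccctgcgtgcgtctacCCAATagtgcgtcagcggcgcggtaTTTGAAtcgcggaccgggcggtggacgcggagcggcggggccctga
Kif23: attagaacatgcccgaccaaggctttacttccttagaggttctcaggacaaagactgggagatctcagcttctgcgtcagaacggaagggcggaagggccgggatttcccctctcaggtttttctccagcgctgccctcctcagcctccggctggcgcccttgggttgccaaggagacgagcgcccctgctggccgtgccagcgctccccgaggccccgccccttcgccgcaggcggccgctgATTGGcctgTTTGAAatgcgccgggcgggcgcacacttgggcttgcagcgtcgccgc
Ccnb1: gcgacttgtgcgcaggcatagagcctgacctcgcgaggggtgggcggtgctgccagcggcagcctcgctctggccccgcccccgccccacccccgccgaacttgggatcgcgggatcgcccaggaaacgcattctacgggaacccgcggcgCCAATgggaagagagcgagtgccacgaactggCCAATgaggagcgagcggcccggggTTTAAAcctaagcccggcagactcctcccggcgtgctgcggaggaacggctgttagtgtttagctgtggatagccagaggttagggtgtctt
Anln: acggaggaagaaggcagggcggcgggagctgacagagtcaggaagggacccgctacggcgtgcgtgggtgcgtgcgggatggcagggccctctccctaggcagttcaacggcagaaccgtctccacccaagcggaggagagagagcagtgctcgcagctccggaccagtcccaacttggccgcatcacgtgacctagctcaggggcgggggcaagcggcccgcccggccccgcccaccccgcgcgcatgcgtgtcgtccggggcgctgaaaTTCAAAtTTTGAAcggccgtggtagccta

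In the Ube2c promoter 6 CCAAT words stood upstream and a TTTGAA word, in reverse, began 29 bases before the start. Ccnb2 held CCAAT words beginning 87, 54 and 21 bases before the start, and TTTGAA words beginning 167 bases before and 4 bases after it. Ccnb1 had CCAAT words at 99 and 67 bases and a TTTAAA word at 42 bases before its start. In Kif23 a single CCAAT word (7 bases before) and a single TTTGAA word (2 bases after) lay close together, and Anln had TTTGAA words, in either orientation, 21 and 28 bases after the start and no CCAAT word. Over all 43 promoters of the 40 matched members, 32 (74.4%) held CCAAT, against 38.5% of the 12154 promoters of genes tested here and 37.4% of all 32851 RefSeq promoters. TTTGAA was in 32 (74.4%), against 12.1% and 17.9%. TTTAAA was in 9 (20.9%), against 9.12% and 13.2%. Words that overlapped were each counted. Either form of the core began within 50 bases of the start in 30 member promoters (69.8%), against 5.05% of the promoters of tested genes and 8.28% of all promoters; this window was chosen after the promoters had been seen. Among 73 promoters of a list of further mitosis genes, 28 (38.4%) held such a core near the start. Of the matched members 6 held none of these words, and these matches describe letters, not bound sites.

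The main comparison asked whether hepatocyte and biliary cultures had different levels of mitosis transcripts. All 49 members were lower in Hep_3D than in Bil_2D in both clones, and their summed level was 1794 and 1888 TPM in Bil_2D replicates 1 and 2 against 288 and 135 TPM in Hep_3D replicates 1 and 2. By TPM, 10179 of the 12336 genes tested were lower in Hep_3D in clone 15C7 and 10067 in clone 19H5. In limma, 49 of 49 fell and 0 rose (Benjamini-Hochberg adjusted p from 0.00464 to 0.0358). Here and below, counts of genes that fell or rose take only those with an adjusted p under 0.05. A gene outside such a count may still be lower. The median log2 fold change of the members was -2.94, Hep_3D minus Bil_2D on log2(TPM + 1), a scale that understates the change of low genes. Across all genes tested 51.9% fell and 6.8% rose on this scale, and the median log2 fold change was -0.73. The most abundant transcripts took a larger share of Hep_3D libraries: the 50 most abundant genes of each held 46.6% and 48.4% of TPM, against 22.4% and 24.8% in Bil_2D. Values are therefore also given after rescaling by median-of-ratios size factors, which brings the median over all genes to -0.02. There 36 of 49 fell and 0 rose, against 9.54% and 11.9% of all genes, and the median of the members was -2.28. By size of change on that scale, 47 of the 49 lay among the lowest 10% of all genes tested and 44 among the lowest 5%. The remaining 13 members had log2 fold changes from -2.62 to -0.89 there, with adjusted p from 0.0516 to 0.0792 for all but Pttg1 (0.231).

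Groups did not overlap for any member on either scale, where Hep_3D lay wholly below Bil_2D for 71.9% of all genes on the TPM scale and 34.7% on the other. With 2 libraries a group, the smallest p that exact permutation allows (two-sided) is 0.333, so the calls rest on the spread that limma pools over genes. They also leaned on single libraries, as did the calls of the whole table. Without Bil_2D replicate 1, 17 members fell on the TPM scale, and without Bil_2D replicate 2, 8 members did, where 17.8% of all genes fell in each case; the median log2 fold change of the members was then -2.99 and -2.92. After rescaling the calls of the members were lost in either case, as were most calls of a fall over all genes. The median log2 fold change of the members was then -2.37 and -2.22. Without Hep_3D replicate 2 the rescaled count was 13, against 1.35% of all genes. With the clone as a replicate block 48 members fell on the TPM scale (58.1% of all genes fell and 7.93% rose), and after rescaling 39 fell (11.7% of all genes), 33 of them also called without the block.

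**Figure D1:**
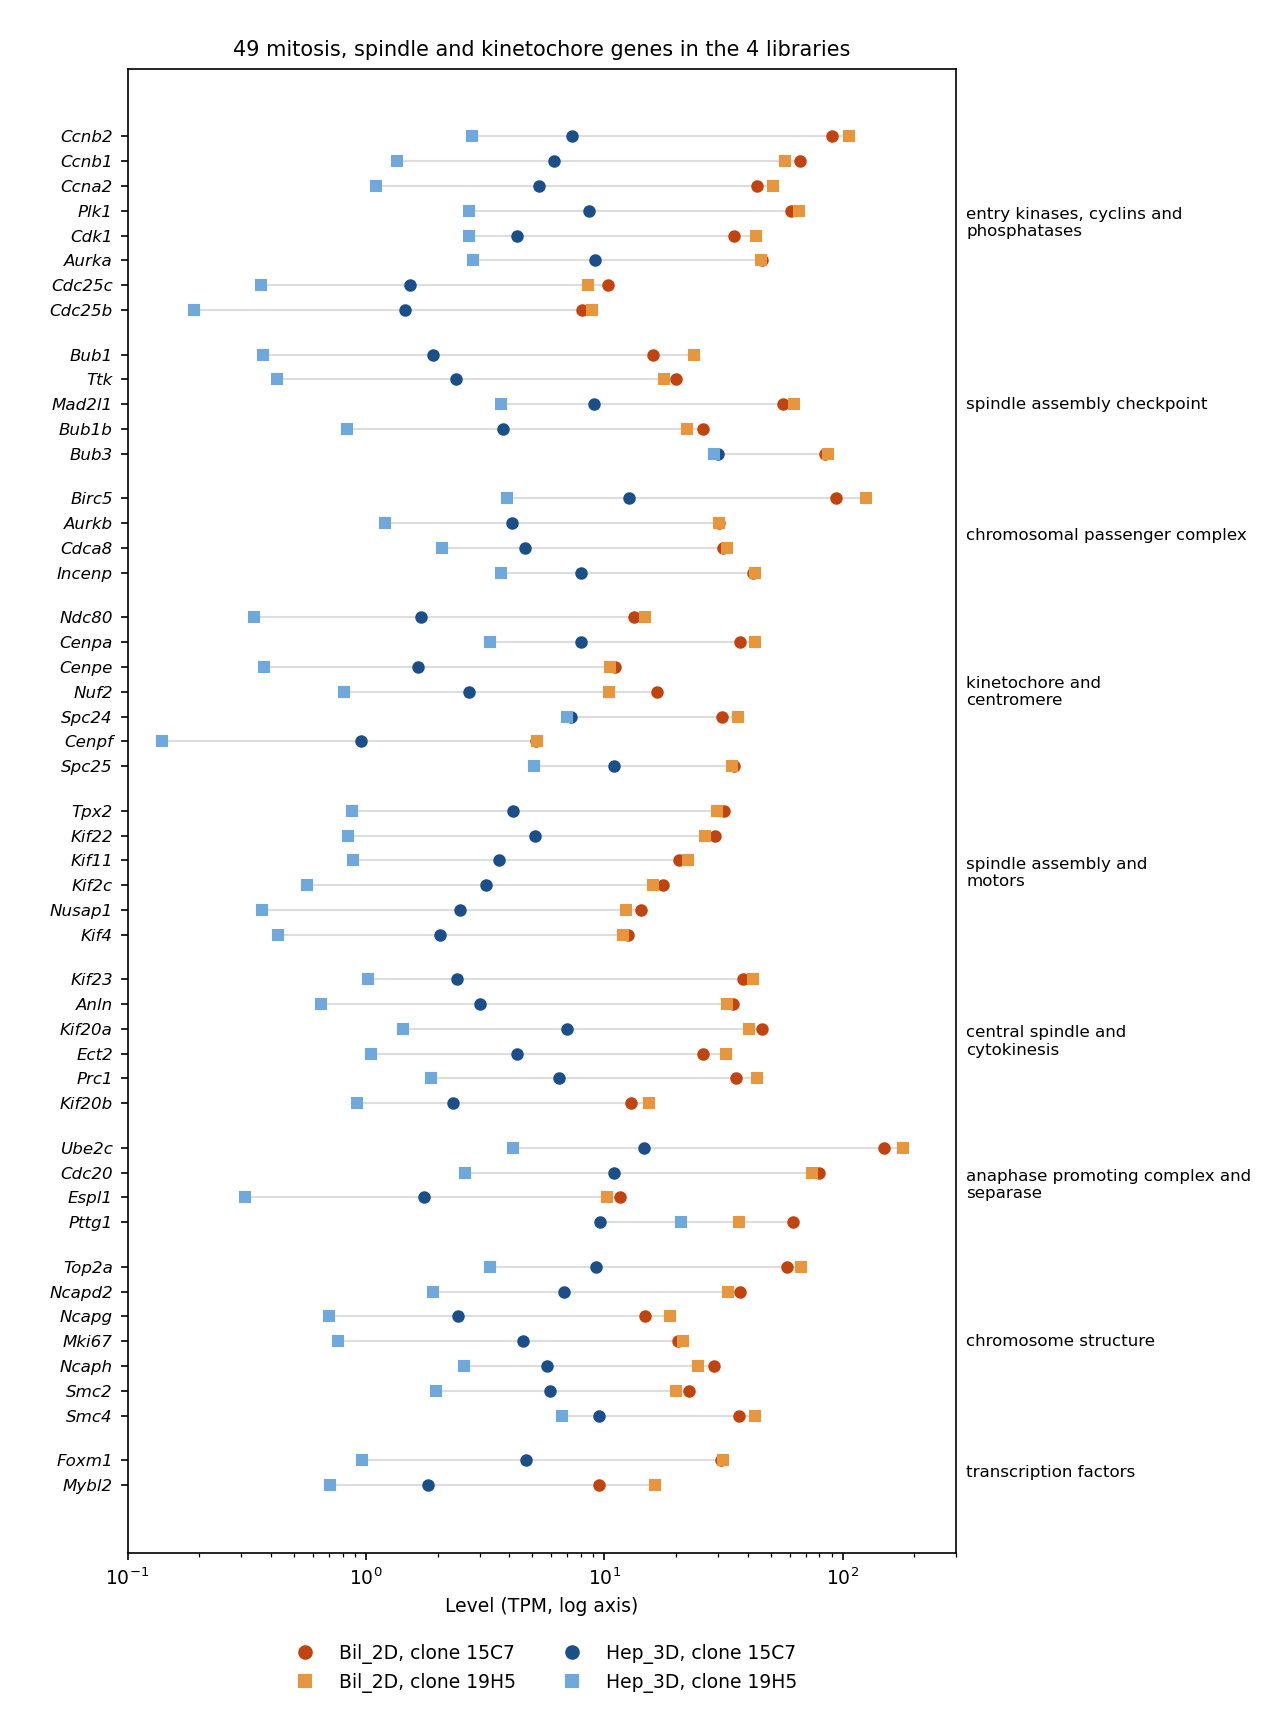
Level of each member in each library (TPM, log axis), grouped by role and sorted by log2 fold change within a role; red circles and orange squares are Bil_2D of clones 15C7 and 19H5, dark blue circles and light blue squares Hep_3D. The Bil_2D points of most genes lie close together, and the Hep_3D points lie to their left and mostly apart. Bub3, Spc24 and Pttg1 are among the genes that break that pattern.

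Transcripts of the kinases, cyclins and phosphatases that start mitosis all fell: 8 of 8 on the TPM scale and 6 of 8 after rescaling. For this and each later role, the shares of all genes that fell were 51.9% on the TPM scale and 9.54% after rescaling. Below, values of a group are given for clone 15C7 and then clone 19H5. Ccnb2, a B-type cyclin that activates Cdk1, stood at 90.3 and 106 TPM in Bil_2D and 7.32 and 2.78 TPM in Hep_3D. Its log2 fold change was -4.14 (SE 0.417, adjusted p = 0.00574), and -3.40 after rescaling (adjusted p = 0.0159). Ccnb1, the cyclin whose destruction ends mitosis, stood at 66.1 and 57.6 TPM against 6.13 and 1.35 TPM, a log2 fold change of -3.94, or -3.24 rescaled. Ccna2, the cyclin of S and G2 phase, had 43.6 and 51.2 TPM against 5.32 and 1.1 TPM, and log2 fold changes of -3.73 and -3.04. All of these cyclins thus had far higher levels in each biliary library, where the clones were within 1.5-fold of each other. In Hep_3D the clones differed more than 4-fold for Ccnb1 and Ccna2, and 2.63-fold for Ccnb2. Cdk1 itself, the kinase they activate, was among the more even members in Hep_3D, at 4.3 and 2.71 TPM against 35.1 and 43.5 TPM in Bil_2D. Plk1, a kinase of entry and spindle assembly, had log2 fold changes of -3.43 and, rescaled, -2.69. Cdc25b and Aurka missed the threshold after rescaling (adjusted p = 0.0518 and 0.0516). Cdc25b and Cdc25c, the phosphatases that release Cdk1 from inhibition, were low in both states, with Bil_2D means of 8.47 ± 0.595 and 9.49 ± 1.26 TPM (SD, n = 2).

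Spindle assembly checkpoint genes fell on both scales (5 of 5). Bub1, a checkpoint kinase at kinetochores, was at 16.1 and 23.9 TPM in Bil_2D and at 1.91 and 0.372 TPM in Hep_3D (log2 fold change -3.37, SE 0.449, adjusted p = 0.0077). Ttk, the Mps1 kinase that recruits the other checkpoint proteins, was at 20 and 17.8 TPM against 2.39 and 0.424 TPM. Mad2l1, which inhibits Cdc20 while kinetochores are unattached, stood at 56 and 62.5 TPM against 9.04 and 3.7 TPM. After rescaling the log2 fold changes of Bub1, Ttk and Mad2l1 were -2.78, -2.58 and -2.38, and their Bil_2D means were 10.1, 7.7 and 5.33 times their Hep_3D means. Bub3, a scaffold that carries Bub1 and Bub1b to kinetochores, had the smallest fall of the 49 on both scales. It was at 84.8 and 87.3 TPM in Bil_2D and 30 and 28.9 TPM in Hep_3D, nearly the same in both clones, with log2 fold changes of -1.52 and -0.72 (adjusted p = 0.00502 and 0.0292).

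The chromosomal passenger complex, which corrects faulty attachments and later directs cytokinesis, fell on both scales (4 of 4). Birc5, survivin, was at 93.5 and 125 TPM in Bil_2D and 12.7 and 3.91 TPM in Hep_3D (log2 fold change -3.73, SE 0.541, adjusted p = 0.00867). The kinase of the complex, Aurkb, was at 30.2 and 30.2 TPM against 4.11 and 1.2 TPM, and borealin, Cdca8, at 31.5 and 32.8 TPM against 4.64 and 2.08 TPM. The scaffold Incenp had the smallest fall of this complex, with a log2 fold change of -2.75.

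Kinetochore and centromere genes fell in 7 of 7 cases on the TPM scale and in 4 of 7 after rescaling. Ndc80, the microtubule-binding subunit for which its complex is named, was at 13.3 and 14.9 TPM in Bil_2D and 1.71 and 0.34 TPM in Hep_3D. Its partner Nuf2 was at 16.6 and 10.5 TPM against 2.72 and 0.811 TPM. The subunits that anchor the complex to the centromere side, Spc24 and Spc25, kept more of their level: Spc24 was at 31.3 and 36.5 TPM against 7.23 and 6.97 TPM, and Spc25 at 34.9 and 34.4 TPM against 11 and 5.09 TPM. Within this complex the log2 fold changes after rescaling were -2.42, -1.83, -1.35 and -1.31 for Ndc80, Nuf2, Spc24 and Spc25, and Nuf2 and Spc25 missed the threshold there (adjusted p = 0.0582 and 0.0697). Cenpa, the histone variant that marks centromeres, was at 37.2 and 42.9 TPM against 8.01 and 3.31 TPM (log2 fold change -2.72, SE 0.396, adjusted p = 0.00878). Cenpe, a kinetochore motor, was at 11.1 and 10.6 TPM against 1.65 and 0.375 TPM, and Cenpf had the lowest level of all members, at 0.14 TPM in clone 19H5 of Hep_3D.

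Genes of spindle assembly and its motors fell in 6 of 6 cases, 3 of them also after rescaling. Tpx2, which activates Aurka on the spindle, was at 31.8 and 29.6 TPM in Bil_2D and 4.16 and 0.872 TPM in Hep_3D (log2 fold change -3.35, SE 0.526, adjusted p = 0.00995). Kif22, a chromosome-arm motor, was at 29.3 and 26.5 TPM against 5.11 and 0.841 TPM, and rescaling brought its adjusted p to 0.0662. Kif11, the motor that pushes spindle poles apart, was at 20.7 and 22.4 TPM against 3.61 and 0.883 TPM, with log2 fold changes of -2.94 and -2.28. Kif2c and Nusap1 missed the threshold after rescaling (adjusted p = 0.0609 and 0.0618) with log2 fold changes of -2.18 and -2.13. These motors sat below 1 TPM in clone 19H5 of Hep_3D and between 2.05 and 5.11 TPM in clone 15C7.

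Central spindle and cytokinesis genes fell in 6 of 6 cases and in 5 of 6 after rescaling. Kif23, a motor of the centralspindlin complex, had the largest ratio of group means of the 49: 38.3 and 42 TPM in Bil_2D against 2.42 and 1.02 TPM in Hep_3D, a 23.3-fold lower mean, or 13.4-fold after rescaling (log2 fold change -3.97, SE 0.306, adjusted p = 0.00474). Anln, anillin of the contractile ring, was at 34.7 and 32.7 TPM against 3.01 and 0.651 TPM. Kif20a, a motor that carries the passenger complex, was at 45.8 and 40.4 TPM against 6.96 and 1.43 TPM, and rescaling brought its adjusted p to 0.0539. Ect2 and Prc1, an activator of RhoA and a microtubule bundler, stood at -3.18 and -3.14 (log2, TPM scale). With the clone as a replicate block both lost their call after rescaling (adjusted p = 0.052 and 0.0514).

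Genes that act on or through the anaphase promoting complex fell in 4 of 4 cases, and in 3 of 4 after rescaling. Ube2c, the ubiquitin-conjugating enzyme of that complex, had the highest biliary level and the largest log2 fold change of the members. It stood at 149.9 and 179 TPM in Bil_2D and 14.7 and 4.16 TPM in Hep_3D (log2 fold change -4.20, SE 0.568, adjusted p = 0.00787), and -3.43 after rescaling. Cdc20, its mitotic activator, was at 80 and 74.1 TPM against 11 and 2.6 TPM. Espl1, the separase that cuts cohesin, was at 11.6 and 10.3 TPM against 1.76 and 0.31 TPM. Pttg1, the securin that holds separase inactive, was the exception: 61.8 and 36.9 TPM in Bil_2D and 9.58 and 21 TPM in Hep_3D. Here clone 15C7 had the higher value in Bil_2D and the lower value in Hep_3D. The log2 fold change of Pttg1 was -1.68 (SE 0.457, adjusted p = 0.0358), with an adjusted p of 0.0574 with the clone as a replicate block, 0.231 after rescaling, and 0.149, 0.0719 and 0.103 without Bil_2D replicates 1 and 2 and Hep_3D replicate 1 in turn.

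Chromosome structure genes fell in 7 of 7 cases and in 4 of 7 after rescaling. Top2a, the topoisomerase that untangles sister chromatids, was at 58.5 and 66.7 TPM in Bil_2D and 9.26 and 3.32 TPM in Hep_3D (log2 fold change -3.25, SE 0.452, adjusted p = 0.00816). Among condensin I subunits, Ncapd2 was at 37.2 and 33 TPM against 6.81 and 1.91 TPM, and Ncapg at 14.9 and 18.9 TPM against 2.43 and 0.699 TPM. Smc2 and Smc4, the ATPases that condensin I and II share, had smaller log2 fold changes of -2.30 and -2.18, or -1.59 and -1.42 after rescaling, where Smc2 missed the threshold (adjusted p = 0.0781). Mki67, which encodes the proliferation marker Ki-67, was at 20.5 and 21.4 TPM against 4.55 and 0.765 TPM. It fell on the TPM scale (log2 fold change -2.81, SE 0.588, adjusted p = 0.0187) and stood at -2.16 on the other, with an adjusted p of 0.0792.

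Both transcription factors among the members fell on both scales. Foxm1, which drives many G2 and M phase genes, was at 30.8 and 31.6 TPM in Bil_2D and 4.71 and 0.963 TPM in Hep_3D (log2 fold change -3.27, SE 0.549, adjusted p = 0.0113). Mybl2, encoding B-MYB, was at 9.52 and 16.3 TPM against 1.82 and 0.708 TPM. The call of Mybl2 after rescaling was lost with the replicate block (adjusted p = 0.0588). Nuf2, Ncapd2, Kif20a, Aurka, Nusap1 and Kif2c were gained there by the block, with adjusted p from 0.0259 to 0.0492.

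A further list of mitosis genes outside the 49 had 82 names, 79 in the table and 78 tested: 73 fell and 0 rose on the TPM scale, and 40 fell and 0 rose after rescaling, with a median log2 fold change of -1.47. Gtse1, a microtubule-associated protein of G2 and M phase, had the largest fall of these, from 69.2 and 64.4 TPM to 6.71 and 2.18 TPM. Of the core subunits of the anaphase promoting complex with its partner enzyme Ube2s, 13 of 15 fell on the TPM scale and 3 of 15 after rescaling, with a median of -0.33 there. Anapc15 had the largest fall, from 33.8 and 39 TPM to 9.13 and 6.14 TPM. Of 10 cohesin genes 9 fell on the TPM scale and 1, Smc1a, after rescaling, where the median was -0.13. For the lists of this paragraph, the shares of all genes that fell were 51.9% on the TPM scale and 9.54% after rescaling. The rescaled cohesin count was thus near the share of all genes. Among subunits of condensin II, Ncaph2 and Ncapd3 had rescaled log2 fold changes of -0.30 and -0.46 (adjusted p = 0.244 and 0.164), and Ncapg2 of -1.56 (adjusted p = 0.0901). These 3 genes were picked after their values were seen, and the difference from condensin I was not tested.

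Genes of the DREAM complex, the E2F family and NF-Y formed a further list: 15 of 20 fell on the TPM scale, 3 fell and 1 rose after rescaling, and the median was -0.26. E2f8, a repressor expressed in cycling cells, fell most, from 8.88 and 11.8 TPM to 1.52 and 0.442 TPM. Rbl2, which encodes the p130 subunit of DREAM and was the member that rose there, was at 10.1 and 10 TPM in Bil_2D and 10.4 and 12.3 TPM in Hep_3D (0.90 after rescaling, adjusted p = 0.0369, against 0.15 and 0.475 on the TPM scale). Of 35 DNA replication genes, 33 fell on the TPM scale and 14 after rescaling, with a median of -1.40, and Rrm2, a ribonucleotide reductase subunit, fell most, from 115 and 207 TPM to 10.5 and 6.73 TPM. Over all genes 51.9% fell and 6.8% rose on the TPM scale, and 9.54% fell and 11.9% rose after rescaling. No difference between these lists and all genes, or between these lists and the 49 members, was tested.

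**Figure D2:**
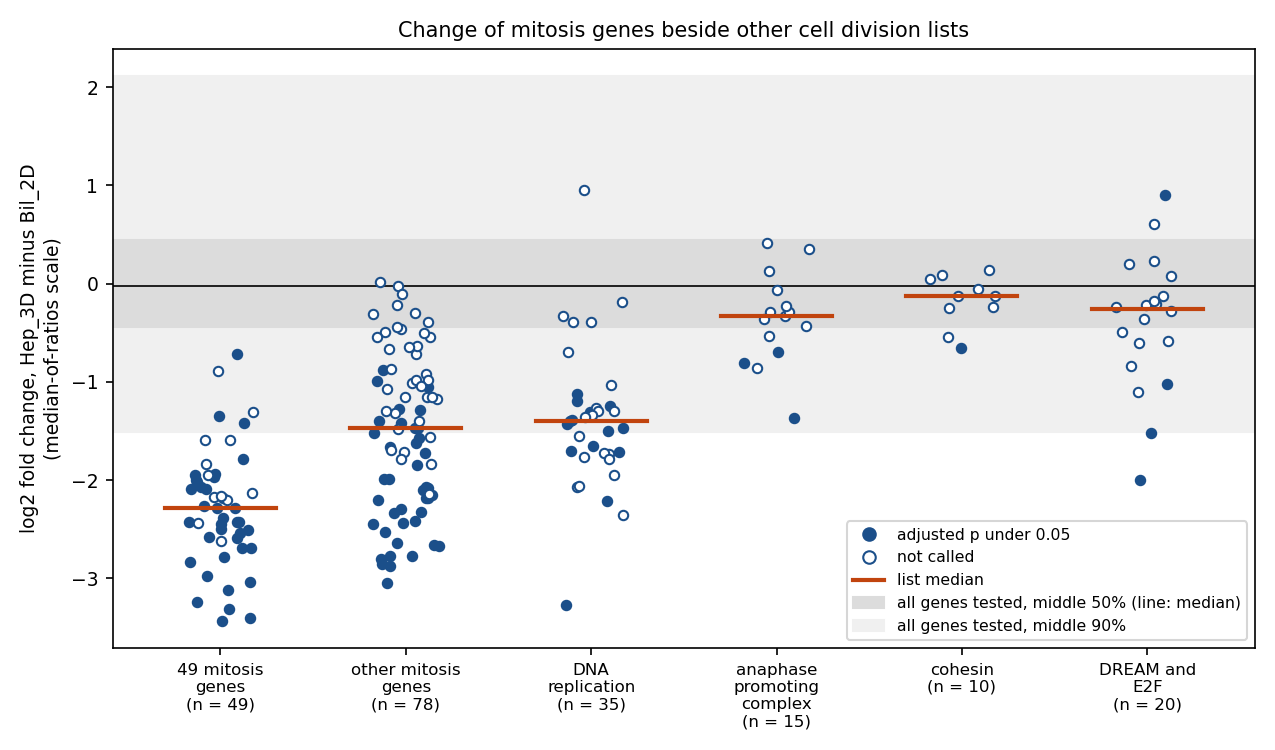
Log2 fold change, Hep_3D minus Bil_2D, after rescaling for each tested gene of the 49 members and of the other cell division lists; filled points have an adjusted p under 0.05 and bars are list medians. Shaded bands and the line give the spread and median of all genes tested. The median of the 49 lies at -2.28 and those of cohesin and the anaphase promoting complex at -0.13 and -0.33.

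The second comparison asked how each clone changed between states. Both clones showed lower levels of all 49 members in Hep_3D, on both scales. After rescaling 41.9% of all genes were lower in both clones. On the TPM scale 10179 of the 12336 genes tested were lower in 15C7 and 10067 in 19H5. The median change of the members was -2.31 in 15C7 and -3.58 in 19H5 on the TPM scale, and -1.54 and -3.0 after rescaling. On the TPM scale 49 members were more than 2-fold lower in 15C7 and 48 in 19H5, against 34.2% and 34.1% of all genes tested. After rescaling, 47 members were more than 2-fold lower in 15C7 and 47 in 19H5, against 9.52% and 11.2% of all genes tested. Summed member TPM was 6.24-fold lower in Hep_3D in 15C7 and 14-fold lower in 19H5, or 3.51-fold and 8.02-fold after scaling. With a single library per clone and state the difference between the clones in their change has no residual degree of freedom and could not be tested.

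The difference between states was larger in 19H5 for 48 of 49 members after rescaling, Pttg1 being the other one, against 51.5% of all genes, and larger by more than 1 log2 unit for 40 members, against 4.62%. The rescaled log2 change of Mki67 was -1.21 in 15C7 and -3.11 in 19H5. For Ube2c it was -2.46 and -4.40, and for Kif23 -2.81 and -3.81. Pttg1 stood at -1.78 in 15C7 and -0.01 in 19H5, so the rescaled securin transcript was level between states in 19H5. On the TPM scale Pttg1 was lower there, from 36.9 TPM in Bil_2D to 21 TPM in Hep_3D (-0.79). The rescaled separase transcript Espl1 stood at -2.66 in 19H5, with only 0.31 TPM in Hep_3D. These values rest on 1 library per state, and the contrast was not tested. Bub3 had the closest pair of changes among the members, -0.66 and -0.77.

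**Figure D3:**
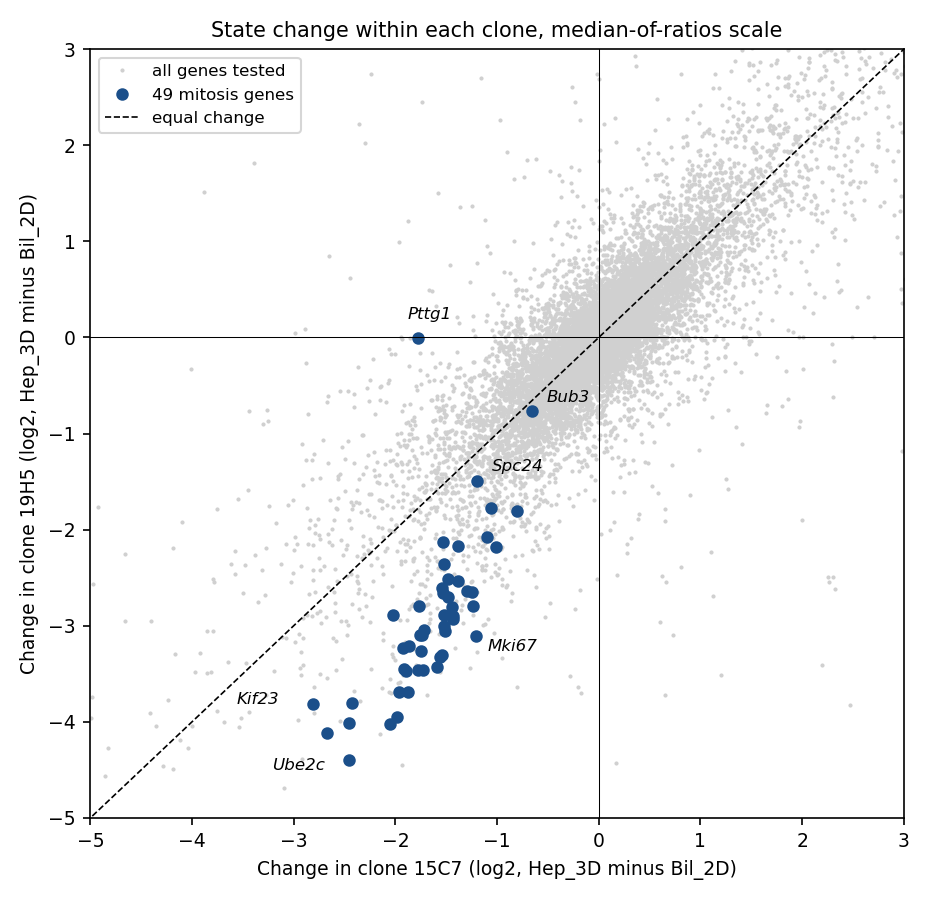
Change from Bil_2D to Hep_3D in clone 15C7 (x axis) against clone 19H5 (y axis), in log2 units after rescaling; blue points are the 49 members, grey points all genes tested within the axes. The members lie below the line of equal change, except Pttg1 at -1.78 and -0.01.

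Ratios between the clones were then taken within each state. In Hep_3D 48 of 49 members were higher in 15C7 than in 19H5 and 1, Pttg1, was lower, where 57.4% of all genes were higher. The TPM ratio of 15C7 to 19H5 ran from 0.456 (Pttg1) to 7.66 (Cdc25b) with a median of 3.53, and 34 members were higher by more than 1 log2 unit on log2(TPM + 1), against 4.89% of all genes. After rescaling 47 members were higher in 15C7 (52.1% of all genes) and 36 by more than 1 log2 unit (5.11%). In Bil_2D 22 members were higher in 15C7, where 59.5% of all genes were, the ratio ran from 0.585 (Mybl2) to 1.67 (Pttg1) with a median of 0.977, and 0 members differed by more than 1 log2 unit in that direction, against 4.73% of all genes. After rescaling 18 members were higher there (50.6% of all genes), 0 of them by more than 1 log2 unit (3.96%). The summed level in Hep_3D was 2.14-fold higher in 15C7, against 0.95 of that in 19H5 in Bil_2D. In limma with cell state as a term, 0 members (lowest adjusted p = 0.326) and 0 of all genes were called different between clones. That fit takes the clone difference to be the same in both states and has 1 residual degree of freedom. A clone difference present in a single state counts as residual there, so the fit cannot decide whether the clones differ. At an unadjusted p under 0.05 stood 1 member, Nuf2, and 1599 genes.

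Levels in the lower library were small: 22 members were under 1 TPM in clone 19H5 of Hep_3D, 1 in clone 15C7 of Hep_3D, and 0 in Bil_2D. The depth of the libraries is unknown, so the counting error behind a ratio of such values is unknown too. Ratios near 1 in Hep_3D were those of Bub3 (1.04), Spc24 (1.04) and Smc4 (1.44), all with levels above 6 TPM in both libraries. Pttg1 was also above 6 TPM in both, with a ratio of 0.456.

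**Figure D4:**
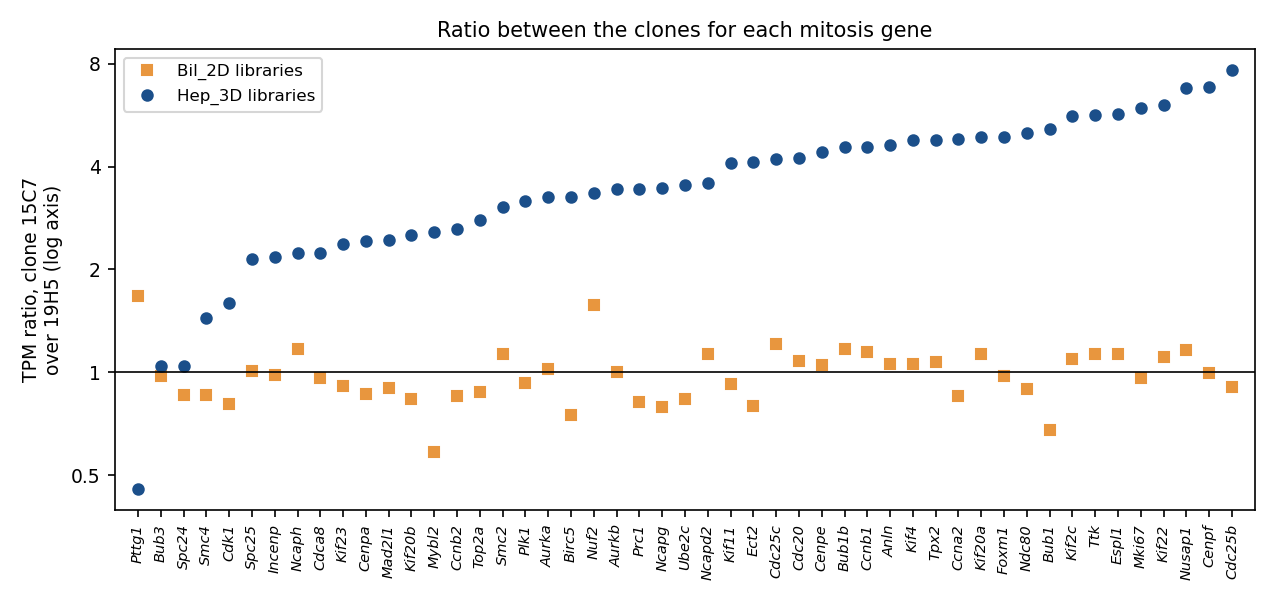
TPM ratio of clone 15C7 to clone 19H5 for each member (log axis), with Hep_3D libraries as circles and Bil_2D libraries as squares, sorted by the Hep_3D ratio. Bil_2D ratios scatter around 1, with a median of 0.977, and Hep_3D ratios have a median of 3.53.

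Cell type markers were also compared between these groups. Of 10 hepatocyte markers, 7 rose in Hep_3D on either scale, where 6.8% of all genes rose on the TPM scale and 11.9% after rescaling. Apoa1 rose most, from 243 and 48.4 TPM to 25939.7 and 30945 TPM. Cyp2e1, which marks mature pericentral hepatocytes, was at 1.96 and 3.53 TPM in Hep_3D. Of 9 biliary markers tested 4 fell and 1 rose (2 and 2 after rescaling). Among all genes 51.9% fell and 6.8% rose (9.54% and 11.9% after rescaling). Krt19 was at 752 and 1615 TPM in Bil_2D and at 1.12 and 15.9 TPM in Hep_3D, so it was higher in 19H5 in both states. Spp1, the biliary marker that rose, was at 4176 and 6092 TPM against 13093 and 9284 TPM. Epcam, a defining biliary surface marker, was at 0.439 to 2.59 TPM across the 4 libraries. Endothelial markers summed to 0.924 and 5.33 TPM in Bil_2D and 1.1 and 4.56 TPM in Hep_3D, with Lyve1 and Emcn listed at 0 in all 4 libraries. In clone 19H5 the 1 marker that passed the filter held nearly all of these sums, at 5.12 TPM in Bil_2D and 4.48 TPM in Hep_3D. Macrophage and leukocyte markers summed to 136 to 495 TPM, nearly all of it Cd14, which rose on both scales, and Ptprc did not exceed 0.0598 TPM. Cd68 was at 4.5 and 11.7 TPM in Bil_2D and 0.674 and 1.74 TPM in Hep_3D, a fall on the TPM scale (adjusted p = 0.0322) that missed the threshold after rescaling (adjusted p = 0.141). Fibroblast and stellate markers summed to 5.08 and 1.37 TPM in Bil_2D and 180.4 and 3.8 TPM in Hep_3D, and 178 TPM of that in clone 15C7 was Dcn, while Col1a1 and Col3a1 did not exceed 1.17 TPM in any library. Dcn was thus high in the same hepatocyte library that had the higher mitosis transcripts, and its part in that difference was not tested.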

How the data were processed

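RNA sequencing libraries of 4 cultures were built by Novogene from RNA extracted with a Qiagen RNeasy kit, per the labels' protocols. The authors deposited TPM per gene symbol, as the table's name says, and each library summed to 1000000. Salmon, DESeq2 and mm10 are named, without versions or roles, per the submitters' processing notes, and the annotation is not given in the sources used here. TPM keeps no depth, so no count model was fitted, and its values depend on the share taken by abundant genes.

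The test of Hep_3D against Bil_2D used limma 3.58.1 in R 4.3.3 (lmFit, then eBayes with a trend) on log2(TPM + 1), for genes reaching 1 TPM in 2 or more libraries. There were 2 residual degrees of freedom, to which eBayes added 2.29. Fits with both cell state and clone as terms had 1. Benjamini-Hochberg adjustment covered the 12336 genes, with calls under 0.05. Rescaling divided TPM by size factors, the median of ratios for genes at 1 TPM or more in every library (1.37 and 1.3 in Bil_2D, 0.769 and 0.741 in Hep_3D). The labels' clone numbers pair the libraries. Across genes, same-clone libraries departed from their group means together (r = 0.414). Fits were tested on simulated data. Alternatives were other pseudocounts (0.1 and 5), no filter or one of 5 TPM, quantile normalization, a fit lacking the 50 most abundant genes, eBayes without a trend or robust, the replicate block, a minimum log2 fold change of 1, and leaving out each library.

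The members, lists and tests were chosen with earlier results of these data known. Genes named with values were the 3 members of each role with the largest change and, in each other list, those that rose or fell most; members not called after rescaling and other genes were named after their values were seen. Of the names in the other lists of cell division genes, 4 matched no row of the table.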

Additional observations from a re-analysis of the deposited data

How the results depend on the processing

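All 49 members had a negative log2 fold change under every alternative run. Of all genes, 51.1% and 52.0% fell with pseudocounts of 0.1 and 5, 60.5% with a 5 TPM filter, 52.1% with no trend and 51.8% with the robust option. The share was 29.4% without the filter, 58.1% with the replicate block, 18.2% without the 50 most abundant genes and 14.1% after quantile normalization. After rescaling it was 9.54%, or 11.7% with the replicate block. The count of members that fell was 49 with pseudocounts of 0.1 and 5, a 5 TPM filter, no trend, the robust option and a minimum log2 fold change of 1. It was 48 without the filter and with the replicate block, where Pttg1 lost its call, 47 without the 50 most abundant genes, 45 after quantile normalization, and 36 after rescaling (39 there with the replicate block). Leaving out a library gave 8 to 49 on the TPM scale (17 without Bil_2D replicate 1, 8 without replicate 2), where 17.8% to 32.0% of all genes fell, and 0 to 43 after rescaling (13 without Hep_3D replicate 2), where 0.162% to 2.46% did. These fits hold fewer samples, and the lone library of a group is taken to vary like the others. The count that rose was 0 in each. The median log2 fold change was -2.02 with a pseudocount of 5, ranged from -3.58 to -2.29 with a library left out on the TPM scale and from -2.94 to -1.63 on the other. The median change within 19H5 was -4.54 with a pseudocount of 0.1 and -2.42 with 5. The clone fit gave 0 members and 0 genes in each of its alternatives, which were chosen after seeing the data. For the members named by rule 411 recomputed calls were the same, 109 were lost and 0 changed sign. Depth is unknown, which limits ratios of values under 1 TPM.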
